A study of Mus musculus with 2148 samples.

Results

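Newborn mTEClo of the mouse thymus, a sort gate for medullary thymic epithelial cells, held cells on both sides of a cut in the transcript of Psmb11, a gene that marks the cortex. Of the newborn mTEClo in the count table, 68 cells were Psmb11-high and 56 were Psmb11-low. The classes were chosen by Psmb11 itself, as a level of at least 100 CPM (the reads of a gene per 1000000 reads of that cell) against a lower one. Together they made up 28.6% of the newborn cells and 6.26% of all 1980 cells in the series. They came from 5 experimental batches, labelled 16 to 20, with 11, 30, 25, 29 and 29 mTEClo. Each batch also held 22 to 37 newborn cTEC and 32 to 40 newborn mTEChi.

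The study profiled single thymic epithelial cells (TECs) with RamDA-seq, which reads total RNA over the whole length of a transcript and not only at its end. All newborn cells came from C57BL/6 mice, were wild type (WT) and were 1 day old. Within the CD45- EpCAM+ gate, Ly51+ cells were taken as cTEC, Ly51- cells with low MHC class II as mTEClo and Ly51- cells with high MHC class II as mTEChi. Adult C57BL/6 cells served as a further reference, namely WT cTEC of 6 weeks, WT mTEClo of 4, 5 or 8 weeks, WT mTEChi of 4, 5 or 6 weeks, and mTEClo and mTEChi of 5 weeks from mice without Aire (Aire-KO). The sex of the newborns was not labelled, and the labels do not say which mouse a cell came from, so batches may share mice and p-values over batches measure the spread between batches, which may be technical.

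The thymus trains T cells in 2 compartments. Cortical epithelium attracts blood-borne progenitors, commits them to the T lineage through the Notch ligand Dll4, and displays self-peptides for positive selection, some of them cut by a thymoproteasome that carries the β5t subunit encoded by Psmb11. Medullary epithelium displays tissue antigens, many under control of Aire, and depends on RANK (Tnfrsf11a) signals. Many medullary cells are known to descend from progenitors that once expressed Psmb11.

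Psmb11 (ENSMUSG00000072423, chr14:54621433-54629556, plus strand, GRCm38) ranged continuously across newborn mTEClo, from 0 to 1783 CPM with a median of 162.3. By level, 2 cells had no Psmb11 read, 31 lay above 0 and below 20 CPM, 15 from 20 to 50, 8 from 50 to 100, 13 from 100 to 200, 28 from 200 to 500, 18 from 500 to 1000, and 9 above 1000. The cells next to the cut stood at 89.1 CPM on the low side and 100.1 on the high side, so the classes are ranges of a graded level and not separated groups. The high class made up 5 of 11 cells in batch 16, 23 of 30 in batch 17, 14 of 25 in batch 18, 14 of 29 in batch 19 and 12 of 29 in batch 20, or 54.8% of all cells (exact 95% binomial interval 45.7 to 63.8). Summed over the cells of a batch, the high class reached 477.7 ± 98.5 CPM (mean ± SD, n = 5 batches) and the low class 26.8 ± 11.1.

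Other sorted populations placed these shares. At least 100 CPM of Psmb11 was found in 92.1% of newborn cTEC (interval 86.3 to 96.0) and in 3.51% of newborn mTEChi (6 cells, interval 1.30 to 7.48). Median Psmb11 was 925 CPM in newborn cTEC and 8.10 in newborn mTEChi. In adults the level was reached by 46 of 77 cTEC (59.7%), by 8 WT mTEClo (2.24%) and by 21 Aire-KO mTEClo (13.6%). Thus the share in newborn mTEClo lay between those of newborn cTEC and every mTEC population measured. These intervals cover counting error over cells only, and nothing was tested here because the level defines the class.

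**Figure D1:**
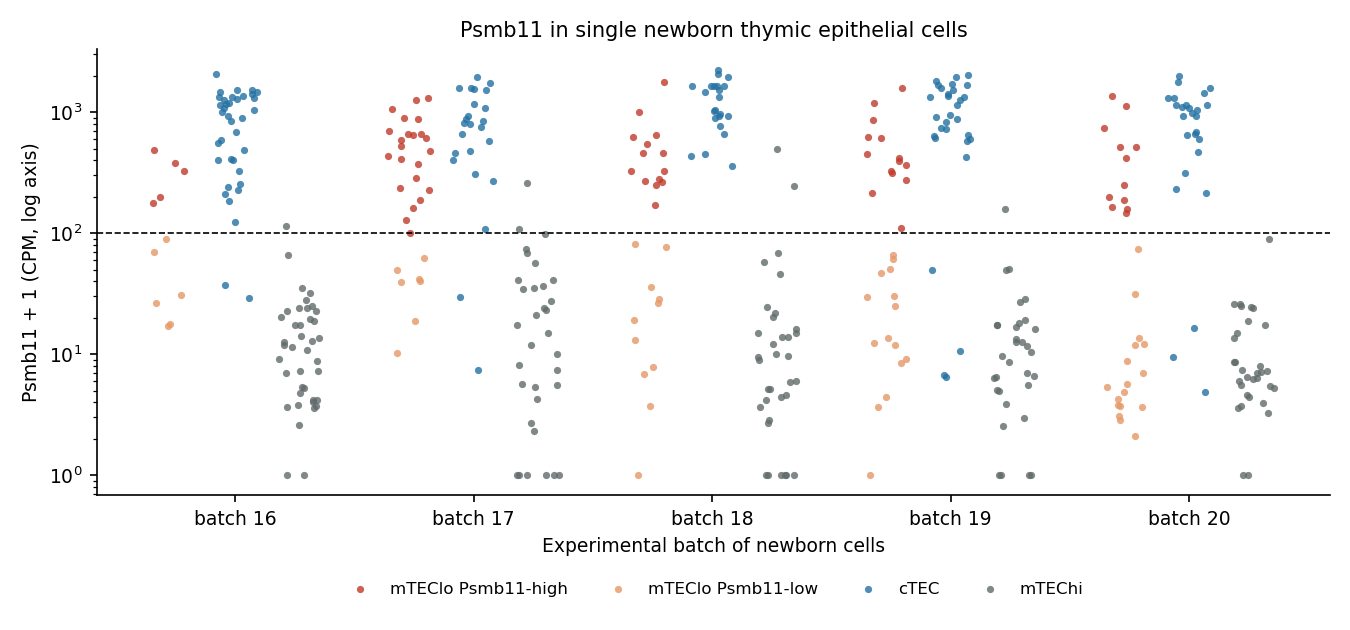
Psmb11 level of each cell (CPM + 1, log axis) in newborn mTEClo, cTEC and mTEChi by experimental batch, 16 to 20, with the cut at 100 CPM as a line. The mTEClo cells spread over the whole range on both sides of the line, with 68 above it, whereas 92.1% of cTEC and 3.51% of mTEChi lie above it.

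The promoters of some genes of the comparison are shown first. The cortical program is known to depend on the transcription factor FOXN1, and GACGC is the core of the sequence that FOXN1 binds. Each window holds 250 bases before and 50 after the start of a RefSeq gene (GRCm38.p6), read 5′ to 3′ on the strand of the gene. Capitals mark GACGC or its reverse complement GCGTC. Psmb11 is the gene of the cut, Cxcl12 and Ccl25 are chemokine genes that followed it, and Krt5 is a medullary keratin gene that went the other way:
Psmb11 chr14:54625060-54625359 (+ strand): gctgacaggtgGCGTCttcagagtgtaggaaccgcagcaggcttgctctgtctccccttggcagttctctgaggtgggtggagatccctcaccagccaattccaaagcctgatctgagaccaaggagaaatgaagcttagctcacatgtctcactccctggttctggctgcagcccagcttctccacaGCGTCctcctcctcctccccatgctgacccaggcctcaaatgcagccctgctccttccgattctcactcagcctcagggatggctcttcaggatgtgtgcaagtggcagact
Cxcl12 chr6:117168285-117168584 (+ strand): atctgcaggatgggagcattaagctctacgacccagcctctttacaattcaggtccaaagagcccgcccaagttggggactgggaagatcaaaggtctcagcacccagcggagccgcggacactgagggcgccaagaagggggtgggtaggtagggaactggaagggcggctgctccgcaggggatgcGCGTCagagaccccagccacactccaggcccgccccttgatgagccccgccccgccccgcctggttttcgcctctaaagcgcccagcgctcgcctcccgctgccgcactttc
Ccl25 chr8:4324960-4325259 (+ strand): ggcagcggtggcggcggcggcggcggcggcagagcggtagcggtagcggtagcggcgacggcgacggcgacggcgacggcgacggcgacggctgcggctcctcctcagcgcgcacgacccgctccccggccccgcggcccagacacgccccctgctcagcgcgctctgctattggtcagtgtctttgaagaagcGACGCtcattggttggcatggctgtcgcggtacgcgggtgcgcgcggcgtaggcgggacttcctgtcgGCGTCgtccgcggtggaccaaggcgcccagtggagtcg
Krt5 chr15:101712856-101713155 (- strand): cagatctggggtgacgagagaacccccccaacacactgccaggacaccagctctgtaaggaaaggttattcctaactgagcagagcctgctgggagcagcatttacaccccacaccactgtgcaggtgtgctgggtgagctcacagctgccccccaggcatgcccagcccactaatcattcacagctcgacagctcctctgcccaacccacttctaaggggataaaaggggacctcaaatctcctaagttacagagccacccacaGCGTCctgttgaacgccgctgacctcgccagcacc
Counted from the start, the letters began 62 bases upstream in Psmb11 (and again near the 5′ end of the window), 62 bases upstream in Cxcl12, 56 bases upstream and 12 bases downstream in Ccl25 (whose second start in the table, with the window chr8:4349338-4349637, had 0), and 15 bases downstream in Krt5. They were found in 27.2% of 32851 RefSeq promoters. By gene, with any of its starts counted, they were found in 44.1% of 13834 matched genes among those tested below. Of matched genes called below, they were found in 43.4% of those higher in Psmb11-high mTEClo and in 32.2% of those lower. Each gene printed above holds them, which is not so for most cortical genes. Of 12 cortical genes with a promoter in the table, 5 held them (Cxcl12, Ccl25, Kitl, Enpep and Psmb11), as did 5 of 9 medullary genes (Krt5, Tnfrsf11a, Nfkb2, Pdpn and Ltbr). A match describes these letters in this window and does not show binding.

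The classes were alike in depth. The high class had a median of 627248 reads and 13940 genes per cell and the low class 655860 reads and 14064 genes. Thinned to 200000 reads, they had 12005 and 11917 genes. More Xist than Y-linked reads were found in 13 of 68 high cells (19.1%) and 21 of 56 low cells (37.5%), beside 25.2% of cTEC, so the classes differed in the share of cells read as female, and the part of this in the results below was not tested. Of the T cell genes on a fixed list, a sum of at least 100 CPM was found in 1 high cell, 3 low cells, 11 cTEC (7.91%) and 56 mTEChi (32.7%).

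For tests, the reads of all cells of a class in a batch were summed, giving 20 sums from 4 classes in 5 batches (5 to 40 cells and 3754152 to 32509557 reads each). They were fitted with edgeR's quasi-likelihood test with batch as a block, over 22691 genes. Calls required a difference of 2-fold or more together with a p-value below 0.05 after Benjamini-Hochberg adjustment over these genes, and every adjusted p below is from this test. Both classes of mTEClo were cut from a single sort by a gene, so genes that vary with Psmb11 from cell to cell differ between them by the way they were made. Their p-values say how evenly a difference recurred over batches and are not evidence from a second sample. Batch values are given in the order 16 to 20, as CPM of the sum.

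Both genes proposed with the cut, Prss16 and Hmga2, are described without a test. Prss16, a serine protease of cortical antigen processing, stood at 738, 1276, 1712, 921 and 1001 CPM in the high class and at 378.6, 434.05, 279.8, 142.5 and 82.3 in the low class. Every high sum exceeded every low sum, and the means differed 4.41-fold in the fit. In newborn cTEC Prss16 was at 1629, 1767, 2735, 1994 and 1699 CPM. Hmga2, a chromatin protein of fetal and progenitor cells, was at 47.9, 50.5, 49.8, 60.8 and 59.7 CPM in the high class, 21.9, 42.5, 37.8, 29.7 and 17.7 in the low class, and 23.3, 29.5, 11.4, 29.7 and 16.5 in cTEC. Thus for Hmga2 the high class was above both other classes in every batch, whereas mTEChi had 1.60 ± 1.93 CPM.

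Between the classes, the Psmb11-high cells carried more transcript of the cortical program. Of 22691 genes, 2.34% were called higher in the high class and 7.94% lower. Of 13 cortical genes on the list other than Psmb11 and Prss16, 10 were higher and 0 lower (Ctsl, Dll4, Cxcl12, Ccl25, Ly75, Tbata, Cd83, Slc46a2, Ackr4 and Cd274), and the 13 had a median log2 fold change of 1.55 beside -0.05 over all genes. Il7, Kitl and Enpep were not called, with log2 fold changes of 0.88, 0.98 and 0.80. Across the other settings 7 to 13 of the list were higher and 0 lower. Without batch 19, whose high class stands apart for medullary genes (below), 1.51% of genes were higher and 5.09% lower, and without batch 20 these shares were 1.42% and 4.00%.

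Among the ligands, Dll4 (chr2:119325784-119335962), the Notch ligand that commits progenitors to the T lineage, read 382.8, 378.8, 461.4, 318.6 and 323.2 CPM in the high class and 33.2, 69.4, 49.7, 111.9 and 11.2 in the low class. The groups did not overlap, and the fold was 7.58 (log2 fold change 2.92, SE 0.44, adjusted p = 0.000602). The chemokine Ccl25 (chr8:4325210-4360020), which draws progenitors and thymocytes that carry Ccr9, was at 152.1, 236.05, 335.3, 303.3 and 162.4 CPM against 37.7, 52.1, 20.2, 38.7 and 25.9. It rose 6.56-fold (log2 2.71, SE 0.30, adjusted p = 9.28e-05), again with no overlap. Cxcl12 (chr6:117168535-117181367), the ligand of Cxcr4, was at 756, 948, 1135, 960.1 and 957 CPM against 302.8, 450.2, 439.3, 227.3 and 90.7. Its fold was 3.40 (SE 0.42 on the log2 scale, adjusted p = 0.0105), and the call was lost without batch 19 or without batch 20 (log2 fold change 1.69 and 1.46), although the groups did not overlap. Il7, the cytokine that sustains early thymocytes, was 1.84-fold apart (adjusted p = 0.0018), below the fold asked for.

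The cortical genes of antigen uptake and processing moved with the ligands. Ctsl (chr13:64359337-64370890), a lysosomal protease that trims the MHC class II invariant chain in the cortex, was at 651, 916, 1107, 839 and 793 CPM in the high class and 463.5, 332.4, 295.8, 301.01 and 227.9 in the low class. It was 2.65-fold higher (log2 1.41, SE 0.21, adjusted p = 0.000504) and did not overlap. Ly75 (DEC-205, an endocytic receptor of cTEC) was 3.81-fold higher (957 ± 119.6 against 269.4 ± 152.4 CPM, adjusted p = 0.000192). Slc46a2, a transporter of thymic stroma, was 3.77-fold higher (811 ± 118.9 against 220.4 ± 59.4, adjusted p = 0.000123). Cd83, a membrane protein that cTEC need for the selection of CD4 T cells, was at 29.6, 94.0, 63.6, 130.9 and 78.5 CPM against 20.4, 32.8, 10.1, 8.11 and 6.61. It was 5.39-fold higher (adjusted p = 0.00174), though the high sum of batch 16 fell within the low range. Tbata, a stromal protein of unclear role, had the least even difference of those tested (2.93-fold, adjusted p = 0.0272, overlapping groups) and lost its call without any one of batches 17 to 20 (log2 fold change 1.15 to 1.53).

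Of 14 transcription factors that pattern the thymus, Foxn1, Pax1 and Hoxa3 were higher in the high class and Tbx1, Ehf and Elf3 lower. Foxn1 (chr11:78357577-78386558), the master regulator of TEC differentiation, was at 633, 623, 609.99, 604.4 and 606.1 CPM in the high class, a narrow range, and at 251.1, 430.1, 413.4, 224.9 and 85.998 in the low class. It was 2.31-fold higher (adjusted p = 0.00959), and without batch 20 its log2 fold change was 0.92, below the fold asked for. Pax1 (chr2:147361925-147393295), a pharyngeal pouch factor, was 2.24-fold higher (985 ± 109.1 against 439.9 ± 118.5 CPM, adjusted p = 0.00187). Ehf (chr2:103263433-103303278), an ETS factor of barrier epithelia, went the other way, at 0.266, 2.34, 1.33, 39.0 and 2.67 CPM against 221.6, 104.4, 106.4, 242.3 and 276.7. Its log2 fold change was -5.15 (SE 0.68, adjusted p = 0.000258), and -6.54 without batch 19. Tbx1 rested on 1 read in the whole high class and is given no fold.

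**Figure D2:**
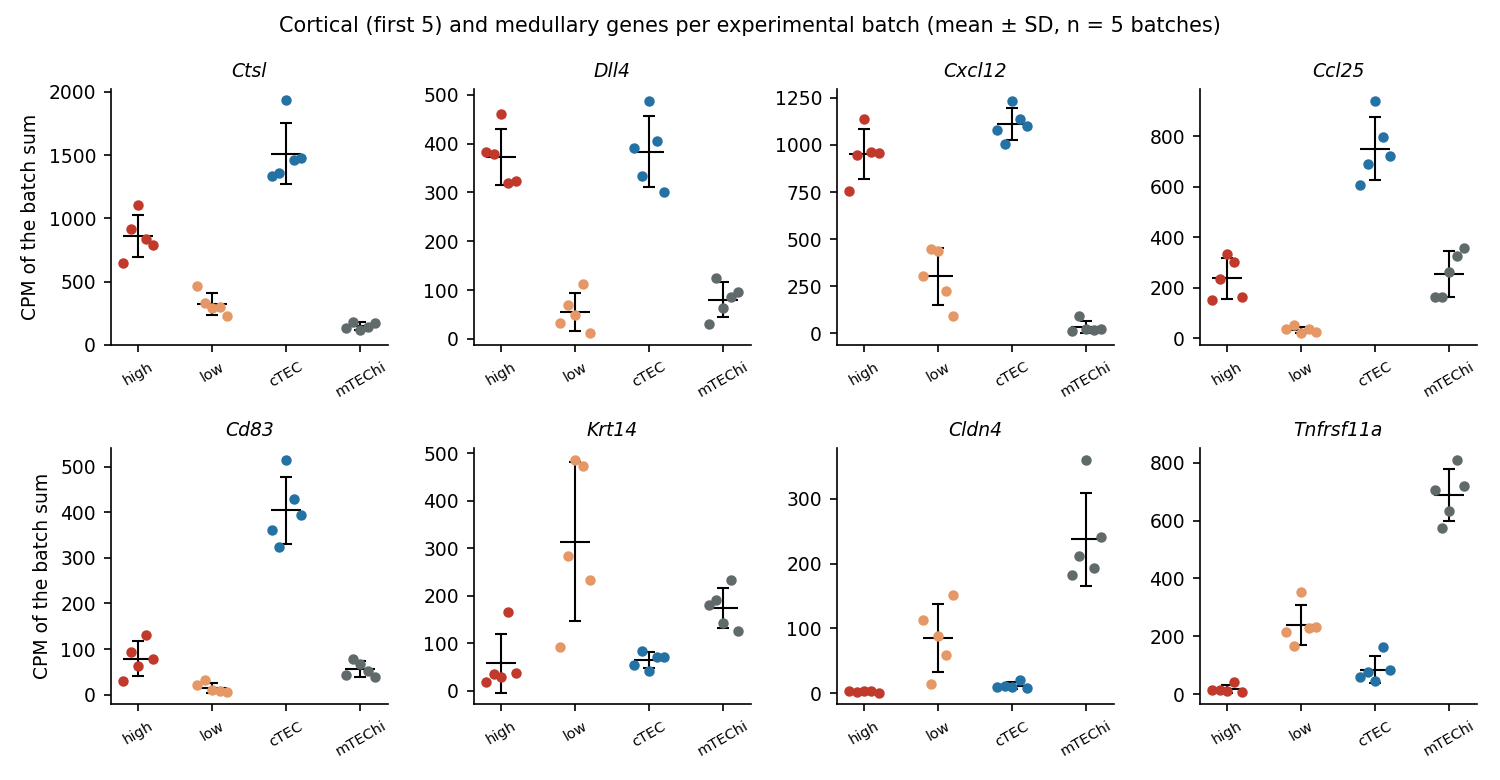
CPM of the summed cells (linear axis) for Ctsl, Dll4, Cxcl12, Ccl25, Cd83, Krt14, Cldn4 and Tnfrsf11a in Psmb11-high mTEClo, Psmb11-low mTEClo, cTEC and mTEChi. Points are the 5 batches and bars the mean ± SD. In Dll4 and Cxcl12 the high class lies beside cTEC, in Ccl25 and Cd83 it lies between the low class and cTEC, and in Cldn4 and Tnfrsf11a it is the lowest of the 4.

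Medullary genes were lower in the Psmb11-high cells. Of 15 medullary genes on the list, 8 were lower and 0 higher (Krt5, Krt14, Ccl21a, Cldn3, Cldn4, Tnfrsf11a, Ly6a and Krt19), with a list median of -2.73. Across the other settings 7 to 9 were lower, and limma called 1 higher. The remaining 7, among them Relb, Nfkb2, Itgb4 and Ltbr, were not called. Reads of Ccl21a and Ly6a can be split among near-identical neighbours and are uncertain in level.

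Tnfrsf11a (chr1:105780718-105847981), the receptor RANK, was at 13.6, 14.5, 12.3, 40.2 and 8.40 CPM in the high class and at 215.2, 167.6, 352.9, 227.3 and 230.8 in the low class. The groups lay far apart, 15.1-fold (log2 -3.91, SE 0.34, adjusted p = 1.57e-05). Cldn4 (chr5:134945119-134946934), a tight junction claudin that marks medullary cells, was at 2.40, 2.15, 3.41, 2.99 and 0.667 CPM against 112.8, 13.6, 88.9, 58.97 and 151.9, or 34.6-fold lower (adjusted p = 9.37e-05). The basal keratin Krt5 (chr15:101707070-101712898) was at 42.1, 81.9, 79.9, 291.1 and 18.5 CPM against 313.8, 691, 646, 649.9 and 473.7, or 6.62-fold lower (adjusted p = 0.00213). Its partner keratin Krt14 was 6.41-fold lower (57.2 ± 61.3 against 313.6 ± 166.99 CPM, adjusted p = 0.000994) and its groups overlapped. In Tnfrsf11a, Krt5 and Krt14, batch 19 held the highest of the 5 high sums. Of the 14 high cells of batch 19, 3 had at least 100 CPM of Krt5, 5 of Krt14, 2 of Tnfrsf11a and 1 of Ehf. Without that batch the log2 fold changes of Krt5, Krt14 and Tnfrsf11a were -3.32, -3.12 and -4.29.

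Genes of mature medullary cells were partly lower in the high class, with 6 of 14 lower (Aire, Fezf2, Cd80, Cd40, Ctss and Tnfrsf11b) and 0 higher. Across the other settings 4 to 7 were lower and 0 to 2 higher. Ctss, the protease that takes the place of Ctsl in the medulla, was at 1.07, 1.52, 0.593, 5.21 and 1.73 CPM against 27.3, 30.3, 27.4, 31.3 and 48.6, or 18.1-fold lower (adjusted p = 1.57e-05). Aire was at 15.4, 10.5, 9.94, 27.7 and 12.8 CPM against 542.6, 37.9, 333.6, 135.7 and 51.2 (13.8-fold lower, adjusted p = 0.00403), while mTEChi had 1516 ± 253.2 CPM. The Aire difference came from few cells, since 8 of 56 low cells and 2 of 68 high cells held at least 100 CPM. With those cells left out its log2 fold change was -0.47 and not called. The MHC class II genes H2-Aa, H2-Ab1 and H2-Eb1, whose proteins were used in the gate, and Cd74, the invariant chain, were among the 8 that were not called.

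**Figure D3:**
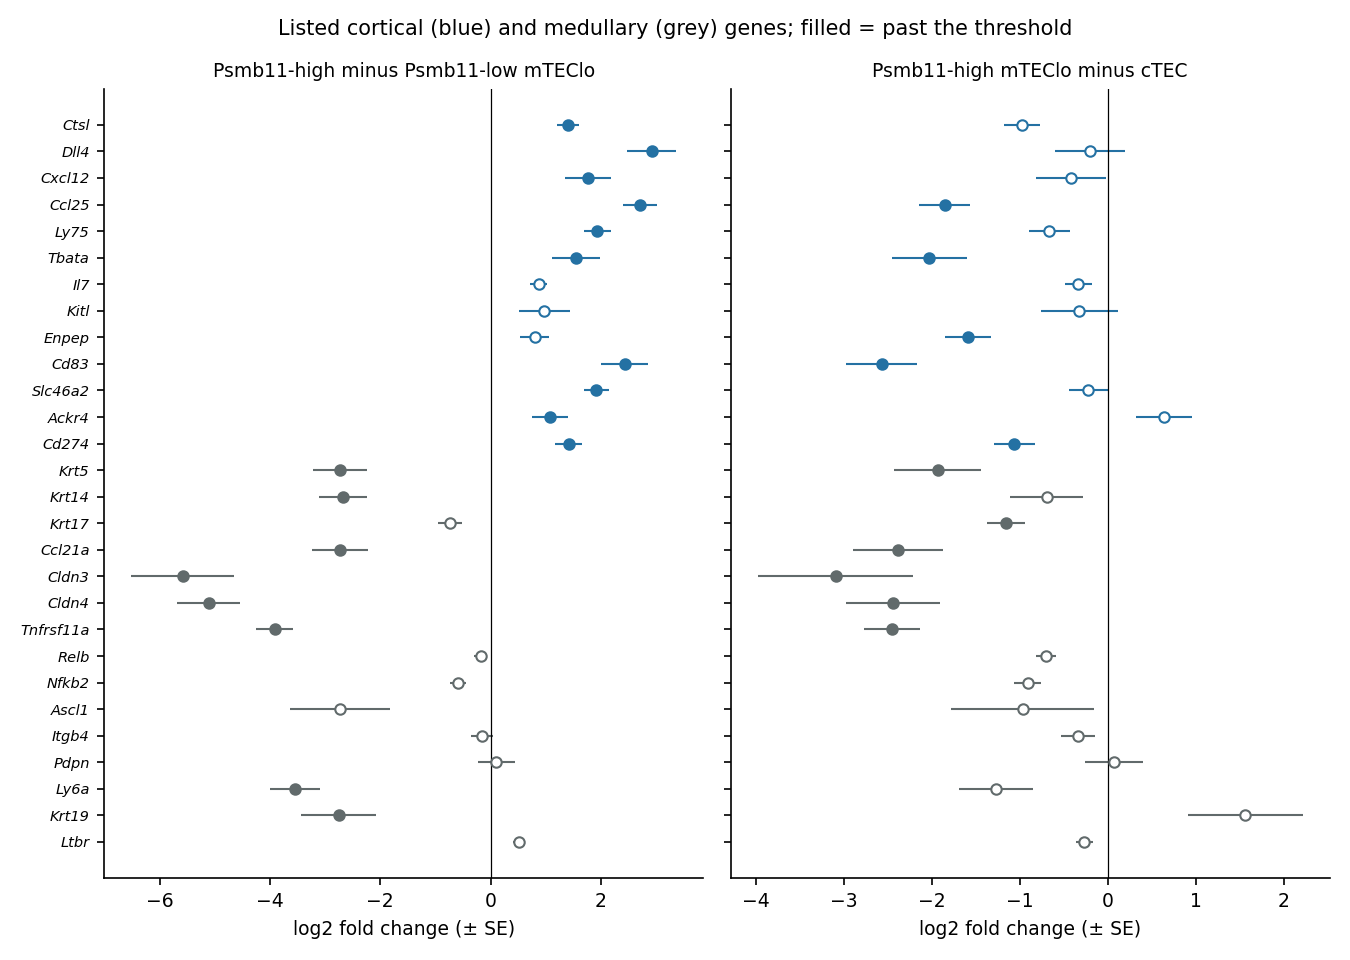
Log2 fold change with its SE for 13 cortical and 15 medullary genes, in Psmb11-high against Psmb11-low mTEClo and in Psmb11-high mTEClo against cTEC. Filled points passed the threshold. All 13 cortical genes lie above 0 in the first comparison and 12 of 13 below 0 in the second, whereas medullary genes lie mostly below 0 in both.

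By the rule of the 10 largest folds among genes called, apart in every batch and at 20 CPM or more, the genes higher in the high class were Pkhd1l1, Nkain4, Ednrb, Crip3, Umodl1, Itgbl1, Atp7b, Dll4, Shisal1 and Dlk2. Pkhd1l1, a large membrane protein related to fibrocystin, was at 160.9, 403.6, 345.7, 254.5 and 222.4 CPM against 33.0, 28.03, 32.6, 4.72 and 8.57 (14.5-fold, adjusted p = 0.000622). Crip3, a LIM protein known from thymus, was 8.70-fold higher, the endothelin receptor Ednrb 8.71-fold and the copper transporter Atp7b 8.11-fold. That their high and low sums did not overlap follows from the rule. Of all genes tested, 3.73% were apart in this direction and 4.21% in the other.

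The 10 named genes lower in the high class were Gabrp, Slc34a2, Dsg1b, Dsg1a, Has2, Msln, Tnip3, Skint2, Ces1d and Mal2. Dsg1a and Dsg1b encode desmogleins, Has2 a hyaluronan synthase and Slc34a2 a phosphate transporter. Slc34a2 was at 0.533, 0.884, 1.04, 5.43 and 1.73 CPM in the high class and at 106.2, 212.3, 149.8, 121.2 and 203.6 in the low class (82.3-fold lower, adjusted p = 0.000116). Gabrp, a GABA receptor subunit, rested on 6 reads in the whole high class beside 75.2 ± 89.8 CPM in the low class, so its fold is not given. Dsg1a and Dsg1b are close copies whose reads may be split between them.

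Genes of the Notch and Wnt pathways moved in both directions. Of 12 Notch pathway genes, the ligand Dll1 and the targets Hey1 and Hes6 were higher in the high class, and the receptor Notch3 and the ligand Jag1 lower. Fewer were called when a batch was left out, with 0 higher and 0 lower without batch 20 and 1 and 1 without batch 19. There were 1 and 2 without batch 18, 2 and 0 without batch 17, and 2 and 2 without batch 16. Calls over all genes also fell without each of these batches. Dll1 was at 64.7, 90.96, 64.5, 83.6 and 128.2 CPM against 53.9, 42.5, 39.6, 47.9 and 33.9 (2.05-fold, adjusted p = 0.0324), and Jag1 was 2.05-fold lower (158.6 ± 64.1 against 319.5 ± 65.5 CPM, adjusted p = 0.00451). Of 16 Wnt pathway genes tested, Wnt4 and Lef1 were higher and Lgr5, Wnt10a and Sfrp1 lower, and 1 was higher and 2 lower without batch 18 or without batch 20. Wnt4, a ligand that TECs themselves make, was 2.40-fold higher (247.9 ± 33.1 against 106.2 ± 43.99 CPM, adjusted p = 0.00442).

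Of 10 proteasome genes, the immunoproteasome subunit Psmb8 and the activator Psme1 were lower in the high class and 0 were higher, and 1 was lower without batch 20. Psme1 was at 30.6, 29.9, 25.2, 53.99 and 29.6 CPM against 83.1, 81.998, 89.3, 114.5 and 128.8, with no overlap (2.98-fold lower, adjusted p = 1.8e-05). Psmb10, a catalytic subunit shared by the immunoproteasome and the thymoproteasome, was 1.82-fold higher (adjusted p = 0.00318), short of the fold asked for.

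Of 15 fetal growth genes other than Hmga2, 0 were higher in the high class and Dlk1, Plagl1 and Nrep were lower. Without batch 17 the list had 5 lower, without batch 16, 18 or 19 it had 2, and without batch 20 it had 3 lower and 1 higher. Nrep was at 37.3 ± 8.59 CPM against 184.6 ± 121.3. Of 20 cell cycle genes 0 were called by edgeR, DESeq2 or limma, 4 had an unadjusted p under 0.05 in edgeR's test, and their median log2 fold change was -0.19. Without batch 16, 6 of the 20 were lower in the high class and 0 higher, and across the remaining settings 0 to 2 were lower. The summed cell cycle genes ranged from 889.6 to 2511 CPM over batches in the high class and from 803 to 3368 in the low class, so the groups overlapped.

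Lists of other cells gave 0 called genes in edgeR's test for 13 T cell, 8 mesenchymal and 4 endothelial genes, of which 0, 4 and 2 had an unadjusted p under 0.05. DESeq2 called 1, 3 and 2 of them, and limma 0 in each. Summed mesenchymal genes ranged from 10.4 to 169.2 CPM over batches in the high class and from 94.2 to 376.6 in the low class, and their part in the results was not tested. Casr was the only one of 4 parathyroid genes lower in the high class, Dclk1 and Avil were the 2 of 4 tuft cell genes, and Lyz2 was the only one of 5 myeloid genes tested. Casr was not called without batch 16, 19 or 20, nor were the tuft cell genes without batch 19 or 20. Here the low class rested on few cells. Of its 56 cells, 2 had 100 CPM or more as the sum of Gcm2 and Pth, and 4 as the sum of Avil and Trpm5. In both cases 0 of 68 high cells did (upper exact bound 5.28%). Without those 6 low cells, 2.14% of genes were higher and 7.05% lower.

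Cell by cell, cortical transcripts were shared by most high cells, while other genes varied among them. All 68 high cells held at least 100 CPM of Prss16, Ly75, Ctsl and Foxn1, and 63 held at least 100 CPM of Prss16, Dll4 and Ly75 together (92.6%), as did 88.5% of cTEC. In the low class this combination was found in 11 of 56 cells (19.6%). Of the 56 low cells, 18 had Krt5 without Prss16, 17 had Prss16 without Krt5, 6 had both and 15 had neither at 100 CPM. The high class had 60 cells with Prss16 without Krt5 and 8 with both. Their summed cortical genes ranged from 1636 to 13947 CPM and their summed medullary genes from 724.5 to 9220. A sum of at least 100 CPM over Mki67 and Top2a, genes of dividing cells, was found in 30.9% of high and 39.3% of low cells. At least 100 CPM of Ccl25 was found in 39 of 68 high cells against 2 of 56 low cells, and of Tnfrsf11a in 3 against 27.

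**Figure D4:**
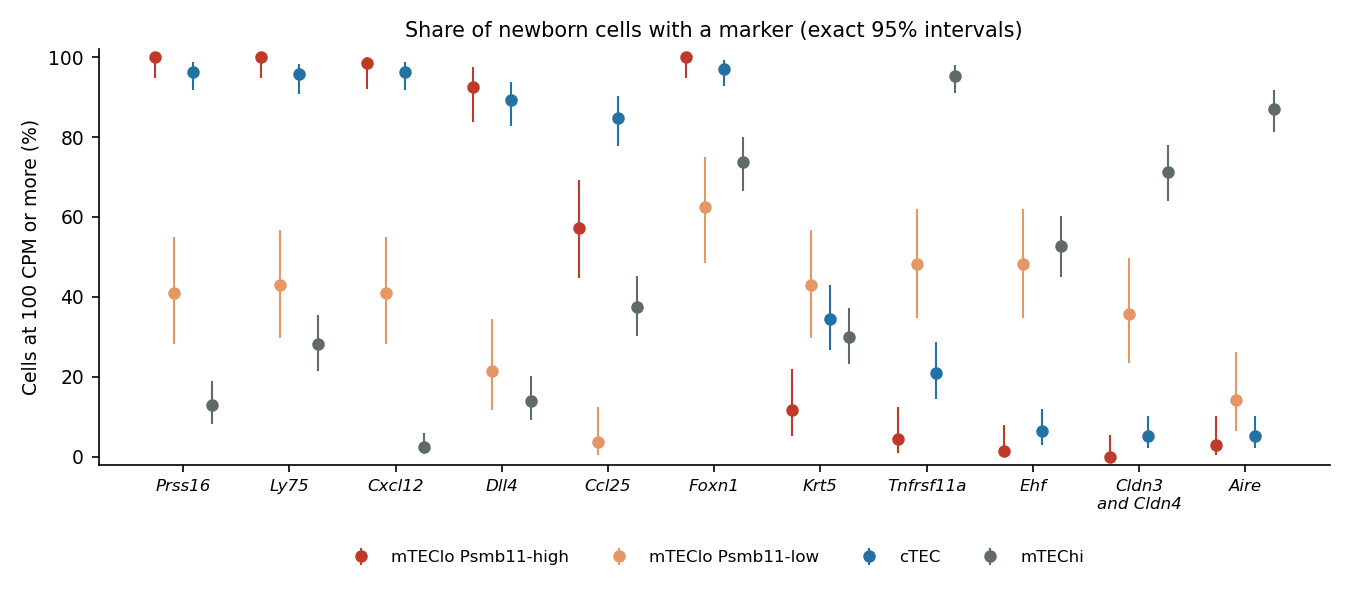
Share of cells (percent) with at least 100 CPM of each marker in Psmb11-high mTEClo, Psmb11-low mTEClo, cTEC and mTEChi, with exact 95% binomial intervals that cover counting error only. Cldn3 and Cldn4 were summed. Cortical markers reach 57.4% to 100% of the high class, and Tnfrsf11a and Ehf reach 48.2% each in the low class and 4.41% and 1.47% in the high class.

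Median levels of the cortical genes below rose from each range of Psmb11 to the next, but unevenly. By ratio, Cxcl12, Ly75 and Dll4 changed most between the lowest range and the next. In the 31 cells with Psmb11 from 1 to 20 CPM, the 23 cells from 20 to 100, the 23 from 100 to 300 and the 45 at 300 or more, median Cxcl12 was 11.1, 485.4, 772 and 1062 CPM. Median Ly75 was 43.4, 537.2, 637 and 1096 CPM over the same ranges. Thus the low cells nearest to the cut already held much of both transcripts. Median Dll4 was 3.71, 111.98, 222.7 and 431.2 CPM, and median Ccl25 was 26.3, 44.9, 65.1 and 198.3 CPM, so Ccl25 rose mainly in the upper range. Krt5 had a median of 1086 CPM in the 31 cells from 1 to 20 CPM and of 17.6, 11.5 and 15.03 in the ranges above. Medians of Hmga2 were 0, 35.3, 34.8 and 53.1 CPM.

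As a description over the mTEClo cells of both classes, the genes whose rank followed Psmb11 most closely within batches (Spearman's rho, 8891 genes) were Tmem131l (0.86), Pithd1 (0.85), Slc36a1 (0.84), Prss16 (0.84), Dll4 (0.82), Pkhd1l1 (0.82), Ly75 (0.81), Lamp2 (0.80), Abat (0.80) and Mfsd12 (0.79). The B cell adaptor Blnk had the lowest value (-0.72), followed by Tgfa (-0.65) and App (-0.64). Within the 68 high cells alone, the summed 13 cortical genes had a rho of 0.81 with Psmb11, the summed cell cycle genes -0.48 and the reads of the cell -0.03. In the 56 low cells these were 0.43, 0.19 and -0.18. The summed medullary genes had a rho of 0.23 in the high cells, -0.37 in the low cells and -0.28 over both classes. For the summed mature medullary genes the values were 0.27, -0.25 and 0.19, and for the summed fetal growth genes -0.40, 0.20 and -0.16. All genes of a cell share its library and its total, so these values are not independent measures.

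**Figure D5:**
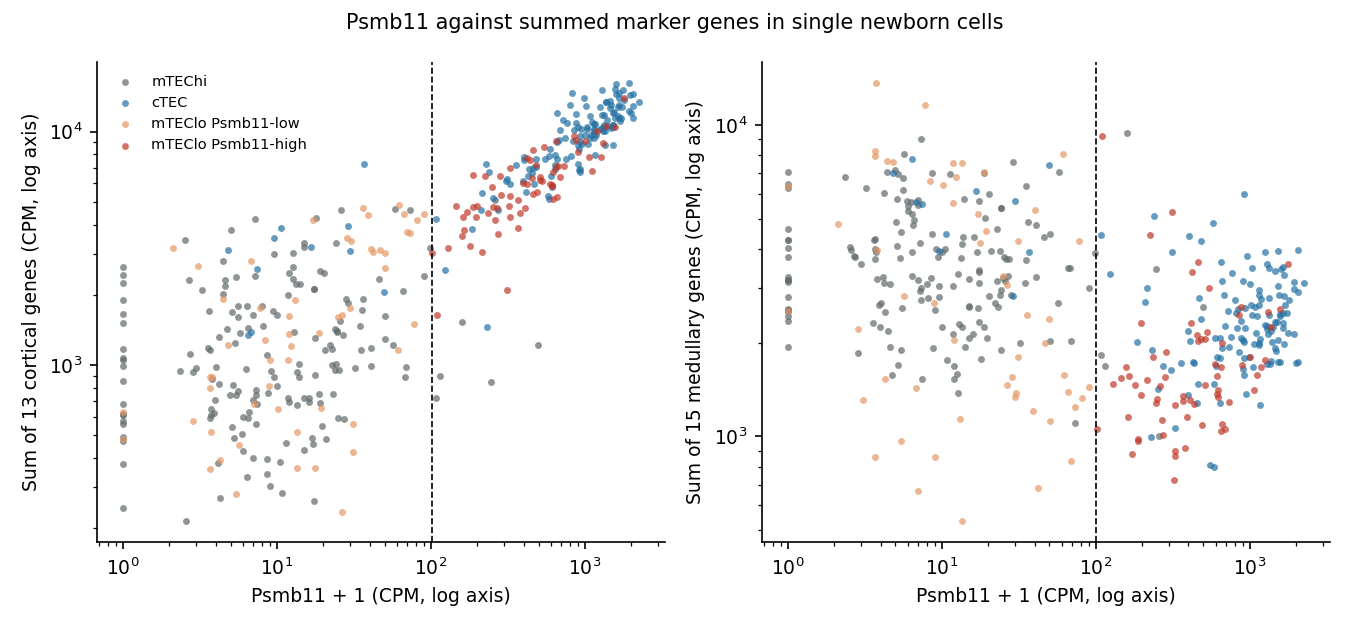
Summed CPM of 13 cortical genes and of 15 medullary genes in each newborn cell against its Psmb11 level (CPM + 1), all axes logarithmic. The cortical sum climbs with Psmb11 through both mTEClo classes toward cTEC, with cell medians of 1364, 5927 and 9713 CPM in low, high and cTEC, whereas the medullary sum spreads widely in the low class (536.5 to 13595 CPM).

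Compared with cTEC of the same batches, which came through the Ly51+ gate, the Psmb11-high mTEClo were close but not the same. This comparison and the next share their sums with the first, so they are not independent of it. Of all genes, 0.511% were called higher in the high class and 3.22% lower. These shares fell to between 0.115% and 0.256% and to between 1.45% and 2.01% when batch 16, 18, 19 or 20 was left out. Of the 13 cortical genes 0 were higher and 5 lower (Ccl25, Tbata, Enpep, Cd83 and Cd274), and 3 were lower without batch 18. Ctsl was 1.97-fold apart (adjusted p = 0.00977), just short of the fold asked for. Dll4, Slc46a2, Cxcl12 and Pax1 were not called, with log2 fold changes of -0.21 (SE 0.40), -0.22 (SE 0.22), -0.42 (SE 0.40) and -0.15 (SE 0.20), which does not show that they were equal.

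Ccl25 was at 606.1, 691, 942, 797 and 724 CPM in cTEC, above every high sum, and 3.61-fold lower in the high class (log2 -1.85, SE 0.29, adjusted p = 0.00165). Cd83 was at 360.2, 323.7, 514.9, 430.02 and 393.5 CPM in cTEC and 5.94-fold lower (log2 -2.57, SE 0.40, adjusted p = 0.00178). Tbata was 4.09-fold lower (291.8 ± 137.8 against 1049.8 ± 200.8 CPM, adjusted p = 0.0104). Enpep encodes Ly51, the protein that separated the gates, and was 3.01-fold lower (58.6, 73.3, 90.8, 63.5 and 72.5 against 175.3, 158.1, 237.4, 179.1 and 205.2 CPM, adjusted p = 0.00227). Psmb10 was the only one of 10 proteasome genes called, 2.20-fold lower (adjusted p = 0.00108), and not called without batch 16. All 10 were below 0 and 9 had an unadjusted p under 0.05 in edgeR's test. Their median log2 fold change was -0.59 beside -0.12 over all genes. Their sum was 962.4 to 1341 CPM over batches in the high class and 1597 to 1758 in cTEC.

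The 10 named genes lower in the high class than in cTEC were Serpina3n, Tph1, Cyp26b1, Sec14l5, Csrnp3, Dnase1l3, Il2ra, Myo5c, Cacna1b and Irf4. Cyp26b1 (chr6:84571414-84593908), which degrades retinoic acid, was at 13.1, 4.86, 4.15, 16.3 and 12.4 CPM in the high class and 201.9, 153.8, 267.3, 127.3 and 187.2 in cTEC. It was 20.9-fold lower (log2 -4.38, SE 0.63, adjusted p = 0.000965) and stood far below cTEC in every batch, while the low class held still less (3.06 ± 3.05 CPM). Il2ra (chr2:11642807-11693193), the interleukin 2 receptor α chain, was at 0.799, 6.51, 6.38, 23.3 and 2.93 CPM against 53.1, 88.01, 136.4, 72.6 and 90.7, or 14.6-fold lower (adjusted p = 0.000629). The low class, at 229.8, 330.1, 254.2, 178.8 and 110.8 CPM, exceeded both, so Il2ra was at its lowest in the Psmb11-high cells. Tph1, a tryptophan hydroxylase, was at 0.745 ± 0.754 CPM against 22.6 ± 15.4.

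Medullary transcripts were lower in the high class than in cTEC too, with 6 of 15 lower and 0 higher (Krt5, Krt17, Ccl21a, Cldn3, Cldn4 and Tnfrsf11a). The 6 became 2 without batch 16 or 18 and 4 without batch 19 or 20. They became 1 without cells whose Mki67 and Top2a summed to 100 CPM or more. A cut at 50 CPM left 2, and thinned reads or limma left 3, while DESeq2 called 7 lower and 1 higher. Tnfrsf11a was 5.47-fold lower (17.8 ± 12.8 against 84.7 ± 45.7 CPM, adjusted p = 0.000502). Krt5 was 3.82-fold lower (102.7 ± 108.6 against 268.4 ± 35.1 CPM, adjusted p = 0.0277). At least 100 CPM of Krt5 was held by 48 cTEC (34.5%) and of Tnfrsf11a by 29 (20.9%), against 8 (11.8%) and 3 (4.41%) of the 68 high cells. Of the mature medullary list, Cd80, Cd40 and Ctss were lower and 0 were higher, and 2 were lower when batch 17, 18, 19 or 20 was left out. All 14 genes of that list, MHC class II genes among them, were below 0 with an unadjusted p under 0.05 in edgeR's test. Their median log2 fold change was -1.96 beside -0.12 over all genes. Their sum was 4060 to 4832 CPM over batches in the high class and 4857 to 6215 in cTEC.

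The 10 named genes higher in the high class than in cTEC were Prune2, Il17rd, Ror2, Chrna4, Col7a1, Mkx, Etv5, Slit2, Igfbp4 and Man1c1. Etv5 (chr16:22381309-22439719), an ETS factor induced by FGF signals, was at 100.7, 46.7, 42.9, 50.9 and 104.4 CPM in the high class and 13.9, 14.2, 5.34, 9.88 and 5.65 in cTEC. It was 6.62-fold higher (log2 2.73, SE 0.47, adjusted p = 0.00316). That no values overlapped follows from the naming rule, and 5.09% of all genes were apart in this direction. Il17rd, an antagonist of FGF receptors, was 10.3-fold higher (44.98 ± 36.3 against 4.15 ± 2.96 CPM, adjusted p = 0.0370). Man1c1, a Golgi mannosidase, was at 62.9, 53.3, 98.03, 109.6 and 100.1 CPM against 24.3, 19.8, 7.49, 10.9 and 10.1 (5.52-fold, adjusted p = 0.0037). Etv5, Man1c1 and Igfbp4 did not differ by call between the mTEClo classes, with log2 fold changes of 0.51, 0.11 and -0.35. Of 10 immediate early and stress genes, Fosb was the only one called (574.8 ± 113.6 against 242.6 ± 68.7 CPM, 2.10-fold higher, adjusted p = 0.0176). It was not called without batch 18, 19 or 20, and 2 genes were called without batch 16 and 4 with limma. Of the 10, 8 were above 0 and 7 had an unadjusted p under 0.05, and their sum stood apart, at 2493 to 3917 CPM over batches in the high class and 1431 to 2404 in cTEC (2717 to 3578 in the low class). The part of these genes in the comparison with cTEC was not tested.

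Lists of 14 transcription factors, 12 Notch, 15 fetal growth and 20 cell cycle genes gave 0 calls against cTEC in edgeR's test. Of them 4, 3, 3 and 1 had an unadjusted p under 0.05, DESeq2 called 2, 1, 1 and 0, and limma 0, 1, 1 and 1. Of the 20 cell cycle genes, 18 were above 0 and 2 below, with a median log2 fold change of 0.69 beside -0.12 over all genes. Their sum was 889.6 to 2511 CPM over batches in the high class and 553.3 to 2133 in cTEC, so the groups overlapped. The part of these genes in the comparison was not tested.

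cTEC held more Psmb11 than the high class, and their summed cells held more T cell RNA in each batch. Of 13 T cell genes, Cd3e, Lck and Rag1 were lower in the high class and 0 higher, which became 0 lower without batch 17, 19 or 20, 1 without batch 16 and 2 without batch 18, whereas DESeq2 called 7 lower and limma 0. The summed level of the 13 was 11.0 to 179.6 CPM over batches in the high class and 87.6 to 331.8 in cTEC. Per cell, the median sum was 15.4 CPM in the high class and 10.9 in cTEC. At least 100 CPM was held by 1 high cell and 11 cTEC (7.91%). Without cells at 100 CPM or more of these genes, 0.405% of genes were higher and 1.67% lower. When cells of both groups were restricted to 200 to 1000 CPM of Psmb11 (46 high cells against 60 cTEC, with medians of 444.8 and 641 CPM), 0.0441% of genes were higher and 0.613% lower. At that restriction Ccl25, Tbata, Cd83, Cyp26b1, Il2ra and Tph1 were still lower and Etv5 and Man1c1 still higher. Their log2 fold changes were -1.45, -1.81, -1.68, -4.36, -3.20, -4.06, 2.33 and 2.19. Enpep, Ctsl, Krt5 and Tnfrsf11a were not called (-0.88, -0.75, -1.37 and -1.82), and 0 of 15 medullary genes were lower.

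The Psmb11-low cells stood further from cTEC. Of all genes, 4.83% were called higher in the low class and 4.50% lower. The former was 2.61%, 3.15% and 2.47% without batches 18, 19 and 20, and the latter 2.96% without batch 19. Of the 13 cortical genes 11 were lower, all but Kitl and Ackr4, and 0 higher. Of the 15 medullary genes 6 were higher and 0 lower. Cd83 was 32.0-fold lower than in cTEC (15.6 ± 11.0 against 404.5 ± 73.2 CPM, adjusted p = 9.75e-06), Ccl25 23.7-fold and Dll4 8.74-fold. Ackr4, an atypical chemokine receptor of the cortex, was the exception, at 163.5 ± 94.7 CPM in the low class, 183.6 ± 32.3 in cTEC and 318.7 ± 41.7 in the high class. In the low class the 10 named higher genes were Tmem236, Mctp1, Dsg3, Plac8, Hr, Slit2, Pappa, Col7a1, Gcnt2 and Gad1. The 10 lower were Cpeb1, Cyp26b1, Rag1, Tph1, Cd83, Slc22a7, Neu2, Cyp1b1, Pkhd1l1 and Nkain4. Plac8 was at 101.1, 14.4, 25.2, 50.2 and 90.1 CPM in the low class and at 3.75, 1.12, 2.53, 0.188 and 1.78 in cTEC. Rag1 is a T cell gene, and its lower level went with the T cell RNA of the cTEC sums.

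The comparison of the mTEClo classes was set beside that of cTEC and mTEChi, which shares no sum with it. Between cTEC and mTEChi 12.4% of genes were called higher in cTEC and 21.9% lower, all 13 cortical genes among the higher. Of the genes higher in Psmb11-high mTEClo, 75% were also higher in cTEC, where they made up 14.2% of the higher genes, and 14 genes were lower there. Of the 1802 genes lower in Psmb11-high mTEClo, 81.2% were also lower in cTEC, where they made up 29.5% of the lower genes, and 9 were higher.

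Adult mTEClo held few cells above the cut, and their values are given without a test, as sums over cells with exact Poisson intervals that cover counting error only. In Aire-KO mTEClo (21 cells from 2 batches against the others), all 13 cortical genes were higher in the Psmb11-high cells, with a median log2 ratio of 3.23 beside -0.09 over all genes. In WT mTEClo (8 cells from 4 batches against the others) 10 of 13 were higher, with a median of 1.55 beside -0.17. Cxcl12 was at 923 CPM (907 to 939) against 103.1 (100.8 to 105.3) in Aire-KO and at 198.6 (187.2 to 210.7) against 79.9 (78.7 to 81.1) in WT. Hmga2 had 0 reads in the Psmb11-high cells of both adult groups (upper bounds of 0.657 CPM in WT and 0.266 in Aire-KO), whereas the newborn high class held 53.7 CPM. Of the 15 medullary genes, 8 were lower in the Psmb11-high cells in WT (median log2 ratio -0.01) and 11 in Aire-KO (-0.46). Of all 22691 genes, 13839 were lower in WT and 13025 in Aire-KO, so the medullary count in WT did not exceed the share over all genes. Among the lower medullary genes, Krt14 was at 223.4 CPM against 452.9 in WT and 140.9 against 379.3 in Aire-KO, and Cldn4 at 3.21 against 45.9 and 2.02 against 32.2. Krt5 was higher, at 986 CPM against 886 in WT and 1032 against 779 in Aire-KO. Tnfrsf11a was at 237.8 CPM against 239.05 in adult WT and 130.4 against 196.9 in Aire-KO. Age, batch and the small number of cells cannot be told apart here.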

How the data were processed

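Single cells were profiled by RamDA-seq, and the authors deposited a table of raw counts per gene (48437 genes, 1980 cells that passed their filters, from 2148 sequenced samples). Per the study's methods and the submitters' processing notes, reads were trimmed with fastp 0.20.0, aligned to mm10 (GRCm38) with STAR 2.7.3a, stripped of low-quality and duplicate reads with SAMtools 1.9 and Picard 2.21.1, and counted per gene with HTSeq 0.11.2 without regard to strand. Reads of overlapping or antisense genes therefore cannot be told apart, and without molecular identifiers a count is a read, not a molecule. Newborn cells had at least 203010 reads, with medians of 548467 to 695844 per class, and intervals cover counting error only. No column of per-sample values was left unused (0).

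Cells were assigned to groups by their labels and to Psmb11 classes by CPM. Reads were summed per class and batch (at least 3 cells) and fitted with edgeR 4.0.16 (TMM scaling, filter on low counts, batch as a block, quasi-likelihood test, 12 residual degrees of freedom) in R 4.3.3. The batch number pairs the classes because every batch label holds cells of all classes. Both mTEClo classes came from 1 sort gate and were cut by Psmb11. The 4 comparisons share 1 fit. The fit was tested on simulated data. Genes were named by a rule of the 10 largest folds per direction among genes called, apart in every batch and at 20 CPM or more, beside members of 16 gene lists (182 genes). A further medullary gene is not reported here. The cut, the markers and the lists were chosen with earlier results of these data known. Alternatives were DESeq2 1.42.0, limma 3.58.1 on means over cells, RLE scaling, no filter, no block, only the classes compared, thinned reads, other cuts, and leaving out cells or a batch. Correlations and intervals used SciPy 1.17.1 in Python 3.11.15. Promoters were taken from RefSeq (GRCm38.p6) and matched by symbol.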

Additional observations from a re-analysis of the deposited data

Results flagged for a closer look

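Among the sets of 5 batch values examined for the genes named with full values, 13 (11.1%) held a batch whose gap to the nearest other exceeded Dixon's limit of 0.71 of the range, and chance gives about 1 in 20 such sets. In Psmb11-high mTEClo, batch 19 stood above the other 4 batches in 7 genes. Krt5 was at 291.1 CPM (others 18.5 to 81.9), Krt14 at 166.2 (18.6 to 36.1), Tnfrsf11a at 40.2 (8.40 to 14.5), Ehf at 39.0 (0.266 to 2.67), Ctss at 5.21 (0.593 to 1.73), Psme1 at 53.99 (25.2 to 30.6) and Il2ra at 23.3 (0.799 to 6.51). These genes are lower in the high than in the low class, and the single-cell maxima in that batch were 2138 CPM for Krt5, 1782 for Krt14 and 560.03 for Ehf. In Psmb11-low mTEClo, Ctss of batch 20 was at 48.6 CPM (others 27.3 to 31.3). In cTEC, Ctsl of batch 18 was at 1932 CPM (others 1337 to 1480.1) and Aire of batch 19 at 161.3 (17.1 to 58.6). In mTEChi, batch 17 was high for Hmga2 at 4.97 CPM, Cxcl12 at 91.3 and Ly75 at 137.1 (others up to 1.22, 25.1 and 94.5).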

How the results depend on the processing

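No gene named with full values reversed its direction. Over 31 combinations of gene and comparison, 95.9% of the values under other settings lay on the same side of the threshold, 20 lost a call and 4 gained it. Counts of calls are given here as percent of the 22691 genes. Leaving out each batch in turn gave 1.42% to 1.97% higher and 4.00% to 7.61% lower between the mTEClo classes, 0.115% to 0.357% and 1.45% to 2.70% for Psmb11-high mTEClo against cTEC, and 2.47% to 5.14% and 2.96% to 4.19% for Psmb11-low mTEClo against cTEC. The classes were paired by batch. Without that replicate block the values were 2.42% higher and 10.4% lower, 0.472% and 3.27%, 6.91% and 4.39%, and, for cTEC against mTEChi, 12.1% and 22.5%, each within 1.5 times.

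Between the mTEClo classes, limma on the mean over cells of log2(CPM + 1) called 5.38% higher and 3.88% lower, which moved the share of calls that were higher from 22.8% to 58.1%. A fit of only the 2 classes called 1.23% and 2.56%, a cut at 200 CPM 1.55% higher, and a low class under 20 CPM 4.21% higher. For Psmb11-high mTEClo against cTEC, DESeq2 called 1.75% higher and 5.04% lower, limma 1.71% higher, only the 2 classes 1.55% higher, thinning to 200000 reads 2.04% lower, leaving out cells with T cell genes 1.67% lower, a cut at 50 CPM 0.238% higher and 1.81% lower, and Psmb11 of 200 to 1000 CPM 0.0441% higher and 0.613% lower. There the share of calls that were higher was 13.7%, against 37.0% with limma and 25.8% with DESeq2. For Psmb11-low mTEClo against cTEC, DESeq2 called 8.85% higher and only the 2 classes 2.37%, and the share of higher calls, 51.7%, was 36.7% with limma and 64.01% with DESeq2. For cTEC against mTEChi limma called 10.6% lower, which moved the share of higher calls from 36.2% to 62.9%, and RLE scaling moved the median log2 fold change of all genes from -0.06 to -0.24. A cut at 200 CPM made 44.4% of newborn mTEClo Psmb11-high.

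The low class under 20 CPM, the restriction to 200 to 1000 CPM and the fit without cells rich in Gcm2 and Pth or in Avil and Trpm5 were chosen after seeing the data. Apart from the smaller number of cells or batches in a subset, the cause of these shifts was not tested. How far depth limited genes of few reads was not tested. On simulated data for the mTEClo classes, the test recovered 26% of genes changed 2-fold and 82% of those changed 4-fold. A call needs a fitted fold of 2 or more, so genes changed exactly 2-fold can fall short at any depth. Only genes above a minimum level were changed, so these shares do not cover genes of few reads.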
